A study of Homo sapiens with 3 samples.

Results

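Described here are 41 genes of glycolysis and of the response to low oxygen, picked by gene symbol from a table of 50868 rows. Each symbol had 1 row in that table. RNA was sequenced from cells labelled AGS, the name of an established human gastric adenocarcinoma line, kept for 48 h with DMSO alone, with 12 µM SFA or with 18 µM SFE. Each condition has 1 library and DMSO is the shared vehicle control. SFA and SFE are code names of compounds, and the sources used here do not say what they are. By role the genes fall into 2 glucose transporters, 17 glycolytic enzymes, 3 PFKFB enzymes, 3 genes of lactate export and pyruvate use, 4 genes of the HIF system and 12 other hypoxia targets.

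Glycolysis breaks glucose down to pyruvate in the cytosol, and lactate dehydrogenase turns pyruvate into lactate, which leaves the cell through monocarboxylate transporters. Hypoxia-inducible factor (HIF) is a pair of proteins, an oxygen-regulated alpha subunit and a stable ARNT subunit. With oxygen present, prolyl hydroxylases of the EGLN family mark the alpha subunit for destruction through VHL, so HIF is controlled mainly at the protein level. Stable HIF binds the core letters ACGTG or GCGTG near its targets, which include many glycolytic genes, and tumour lines often use glycolysis heavily even with oxygen present.

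The DMSO library held 18767232 counts, the SFA library 13639844 and the SFE library 13644676. Wherever 3 values are listed for a gene, they are in the order DMSO, SFA, SFE. No library has a replicate, so no test between conditions was possible, no p-value is given, and the spread between cultures is unknown. Intervals on folds are exact 95% intervals that cover counting error only, and the sources used here name no molecular identifiers. The keratins KRT8 and KRT18 stood at 416 and 534 FPKM (counts scaled to gene length and library total) in the DMSO library, while the epithelial markers EPCAM and KRT19 were at most 0.336 FPKM in any library. Of the 4 epithelial markers, these 2 are thus close to absent, which is unusual for an epithelial line, and the identity of the line was not tested. The summed level of the 4 epithelial markers was 951, 516 and 526 FPKM, while the proliferation markers stood at 4.57, 3.23 and 4.06 FPKM (MKI67) and 25.4, 15.4 and 14.9 FPKM (TOP2A). All 4 fibroblast markers reached 1 FPKM, and their sum was 30.4, 16.6 and 19.8 FPKM. COL1A1, COL3A1 and PDGFRB were below DMSO in both treated libraries, while THY1 was above it at 4.29, 6.48 and 7.25 FPKM. None of the leukocyte, endothelial or erythroid markers reached 1 FPKM (highest value 0.507 FPKM), and CD3E was at 0 throughout. Whether these marker differences have a part in the values below was not tested. In such bulk RNA, fewer cells of a kind and less RNA per cell cannot be told apart.

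In both treated libraries the 41 genes showed no common shift. Most differences were small, and the glycolytic enzymes were split between higher and lower. Most of the 12 other hypoxia targets were higher, while CA9 and HIF1A were lower. Of 31 further hypoxia targets outside the 41 genes, 17 (54.8%) were higher in each comparison, against 51.4% (SFA) and 55.2% (SFE) of all genes. Of the 41 genes, 38 reached 1 FPKM in at least 1 library, and PDK1, ARNT2 and ANKRD37 did not. On the log2(FPKM + 1) scale, 0 of the 38 differed from DMSO by 2-fold or more with either compound. Of the 11680 genes that passed the same filter, 1.36% were 2-fold or more above DMSO with SFA and 1.34% below it by as much, and with SFE these shares were 1.37% and 1.01%. The added 1 FPKM understates the change of low genes, so folds are given as ratios of counts per library total. By that ratio, 4 of the 38 (10.5%) were at least 1.5-fold higher with SFA (PFKFB4, VEGFA, ADM and NDRG1), against 10.2% of all genes tested. Another 4 (ENO2, PFKFB2, HIF1A and CA9) were at least 1.5-fold lower, against 9.08%. With SFE, 2 of the 38 (5.26%, PFKFB4 and ADM) were at least 1.5-fold higher, against 10.6%, and 3 (7.89%, PFKFB2, HIF1A and CA9) at least 1.5-fold lower, against 6.89%. These shares are close to those of all genes, except that the share of higher genes with SFE lies below.

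**Figure D1:**
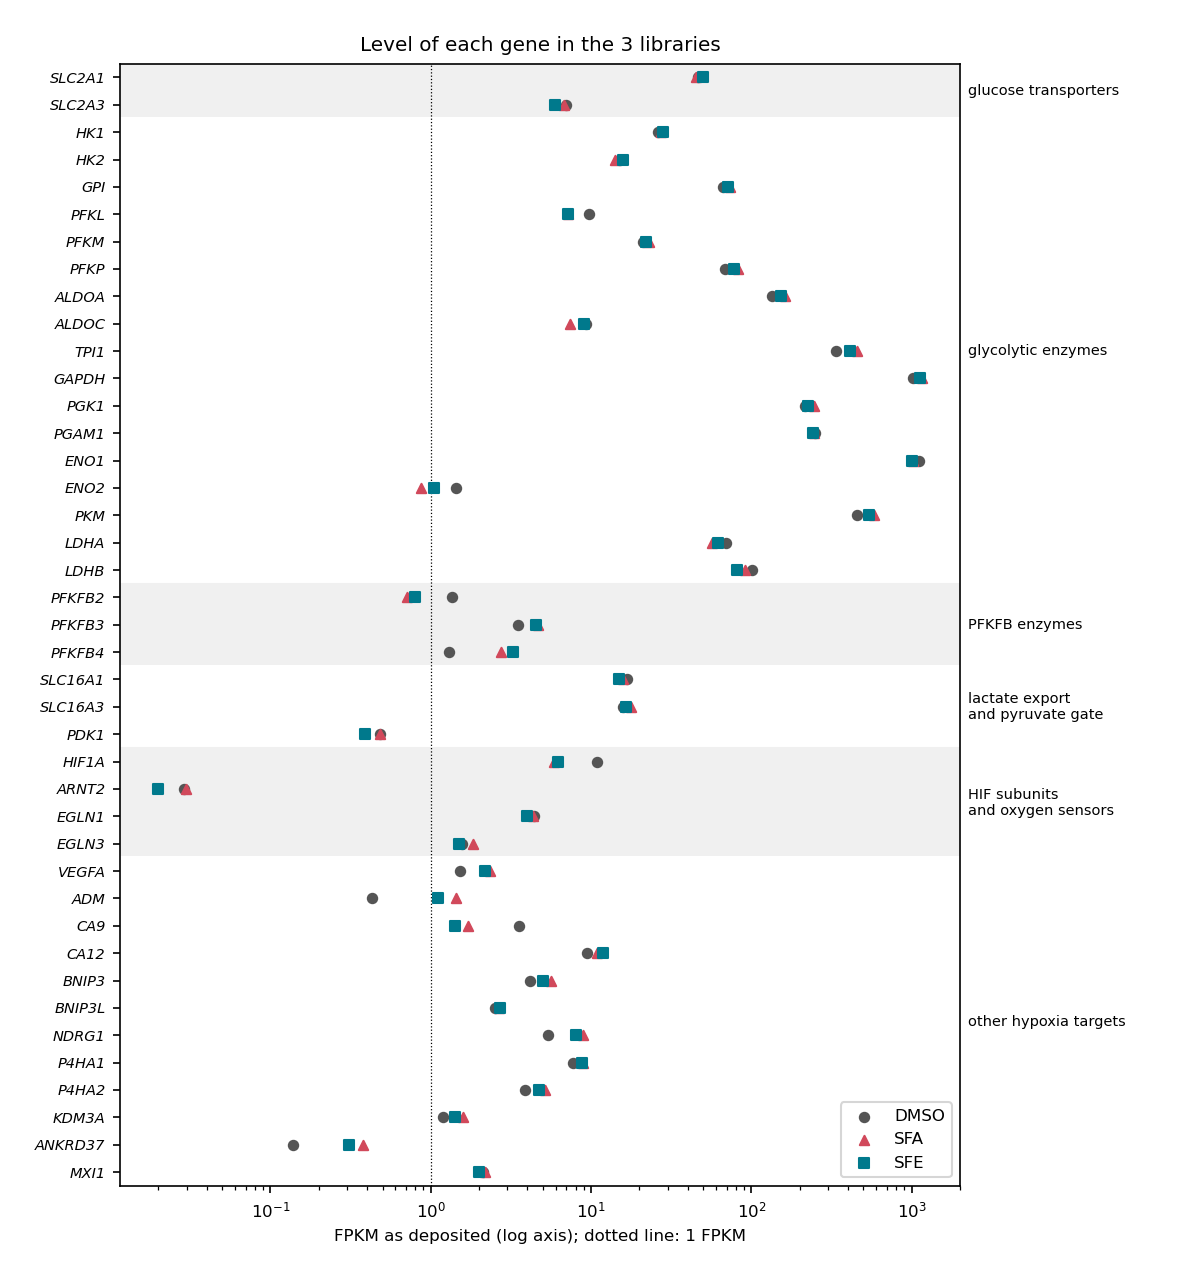
Level of each of the 41 genes in the 3 libraries, as deposited FPKM on a log axis, with circles for DMSO, triangles for SFA and squares for SFE. The symbols of most genes overlap, while HIF1A, CA9, ADM, PFKFB2, PFKFB4 and ANKRD37 show a DMSO value apart from the treated pair.

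HIF1A, the oxygen-regulated HIF alpha subunit (ENSG00000100644, hg38 chromosome 14, 61695513 to 61748259), was lower in both treated libraries. Its level was 10.9, 5.89 and 6.25 FPKM, from 1988, 783 and 830 counts. The DMSO value stands above both treated values, and HIF1A was 1.85-fold lower (1.70 to 2.01) with SFA and 1.74-fold lower (1.61 to 1.89) with SFE. Of the 3 listed genes that overlap its locus, none had more than 8 counts in any library. ARNT2, a partner subunit best known from neurons, had 8, 6 and 4 counts and was close to absent in these cells.

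The oxygen sensors differed little. EGLN1, the main HIF prolyl hydroxylase, had 626, 450 and 415 counts, and both count ratios have intervals that hold 1. EGLN3, a hydroxylase that is itself a HIF target, stood at 1.57, 1.85 and 1.49 FPKM, a ratio of 1.17 with SFA (0.984 to 1.40) and 0.949 with SFE (0.787 to 1.14). Differences in the 2 sensors were not detectable at this depth. SPTSSA, which overlaps EGLN3 on the same strand, had 367, 172 and 196 counts, so the EGLN3 value is uncertain to that extent.

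Among the 12 other hypoxia targets, 11 were above DMSO in the SFA library and 10 in the SFE library, counted over all 12 whatever their level. Of the 11 that passed the filter, 10 and 9 were higher, where 51.4% of all genes tested were higher with SFA and 55.2% with SFE. Under median-ratio scaling of the libraries the 11 kept these counts, while all genes tested went from 6002 higher and 5672 lower to 5546 and 6128 with SFA, and from 6445 and 5228 to 5215 and 6458 with SFE. Their median log2 difference was 0.23 with SFA and 0.22 with SFE, beside 0.01 and 0.03 over all genes tested. The larger list of further hypoxia targets, given below, had medians of 0.02 and 0.06. ADM passed the filter only through the treated libraries, and the 11 genes were not drawn at random, so the medians and counts describe these libraries only. Both comparisons use the same DMSO library, so a low or high DMSO value moves both alike.

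ADM, which encodes the vasodilator peptide adrenomedullin (ENSG00000148926, chromosome 11, 10304680 to 10307397), had the largest count ratio with SFA among those of the 41 genes that passed the filter. It had 72, 176 and 135 counts, or 0.427, 1.44 and 1.10 FPKM. Both treated values lie above DMSO, by 3.36-fold (2.54 to 4.49) with SFA and 2.58-fold (1.92 to 3.48) with SFE. No listed gene overlaps ADM.

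CA9, a cell-surface carbonic anhydrase that serves as a classic marker of hypoxic tumour cells (ENSG00000107159, chromosome 9, 35673856 to 35681159), went the other way. It had 179, 62 and 52 counts, or 3.56, 1.69 and 1.42 FPKM. The DMSO value is the highest of the 3, and CA9 was 2.10-fold lower (1.56 to 2.85) with SFA and 2.50-fold lower (1.83 to 3.48) with SFE. ARHGEF39 overlaps CA9 on the opposite strand and had 606, 481 and 453 counts. Whether counting used strand is not given in the sources used here, so the CA9 value is uncertain to that extent. CA12, a related carbonic anhydrase that hypoxia can also raise, was higher instead, at 9.44, 10.9 and 11.9 FPKM, which is 1.15-fold (1.08 to 1.23) and 1.27-fold (1.19 to 1.35).

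NDRG1, a stress-response gene induced by hypoxia and by metal chelation, stood at 5.42, 8.86 and 8.05 FPKM, which is 1.64-fold (1.53 to 1.75) and 1.49-fold (1.39 to 1.59). VEGFA, the angiogenic growth factor, stood at 1.52, 2.36 and 2.18 FPKM, which is 1.55-fold (1.41 to 1.71) and 1.43-fold (1.30 to 1.58). For both genes the treated values exceed DMSO and lie close to each other. No listed gene overlaps NDRG1 or VEGFA.

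The remaining hypoxia targets lay closer to DMSO than NDRG1 and VEGFA did, apart from ANKRD37. BNIP3, a mitophagy receptor, had 540, 531 and 471 counts, above DMSO in both treated libraries by more than counting error. Its paralog BNIP3L stood at 2.50, 2.65 and 2.72 FPKM, with both intervals holding 1. The collagen prolyl hydroxylase subunits P4HA1 and P4HA2 had ratios of 1.16 and 1.34 with SFA and of 1.14 and 1.23 with SFE. Among the genes that overlap P4HA2 on the opposite strand, PDLIM4 had 634, 421 and 496 counts and SLC22A4 376, 111 and 172. KDM3A, a histone H3 lysine demethylase, had ratios of 1.32 and 1.18. MXI1, a MAX partner that opposes MYC, stood at 2.11, 2.17 and 2.01 FPKM, within counting error of DMSO. ANKRD37, a small ankyrin-repeat gene, had only 11, 22 and 18 counts, which is 2.75-fold (1.28 to 6.28) and 2.25-fold (1.01 to 5.27). UFSP2, which overlaps ANKRD37 on the opposite strand, had 63, 46 and 53 counts.

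**Figure D2:**
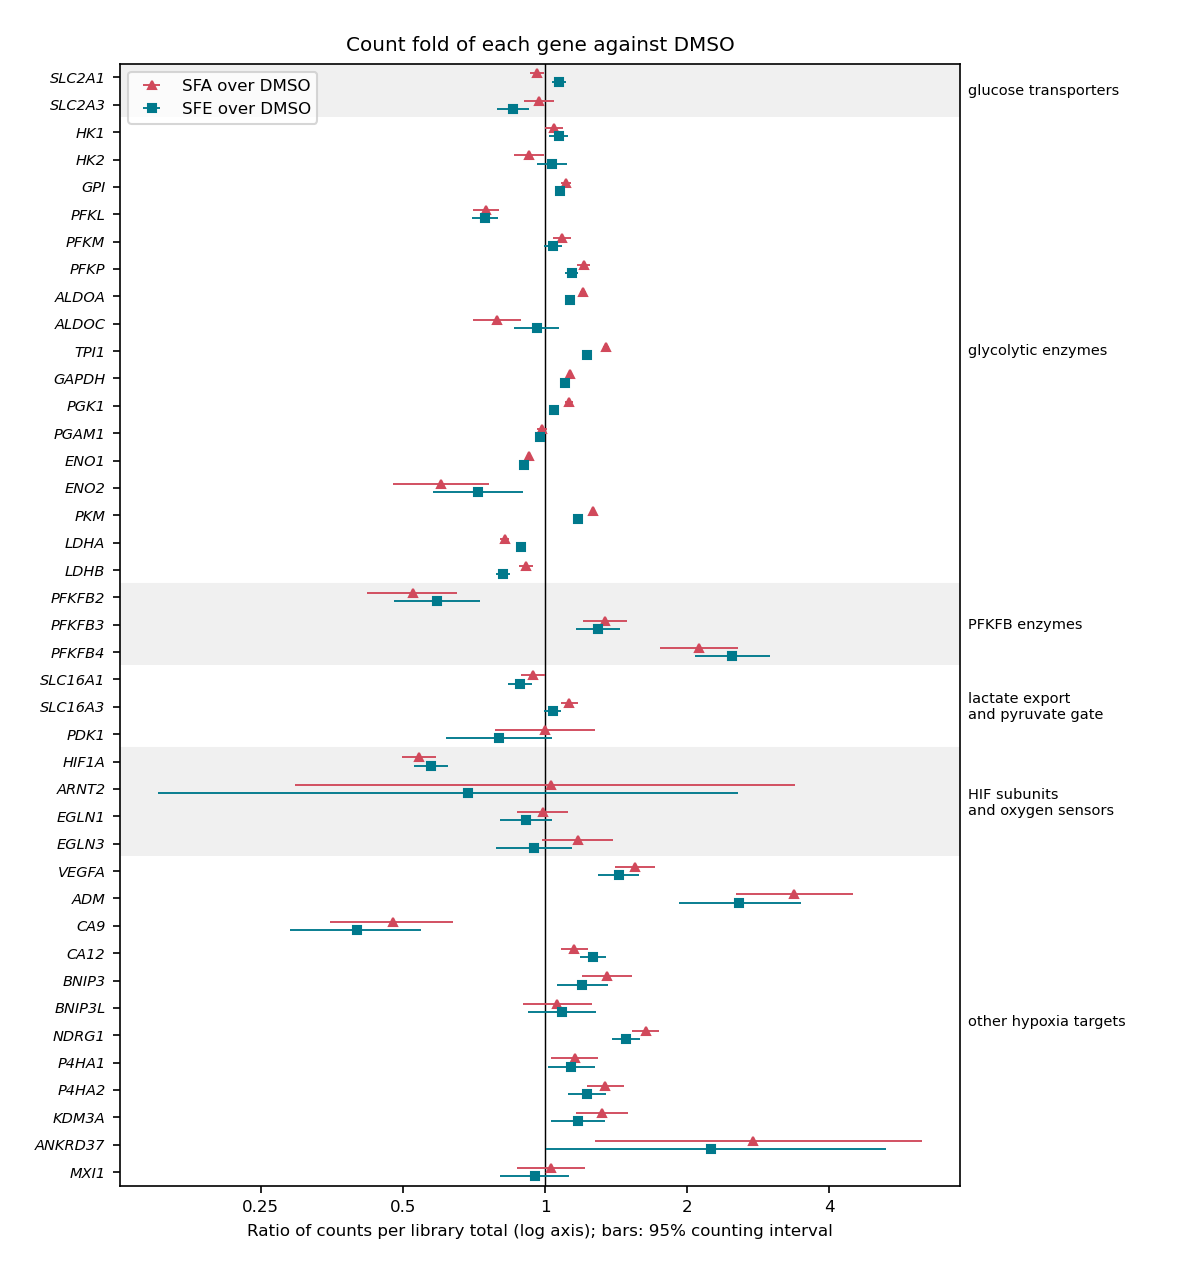
Ratio of counts per library total for each gene, SFA over DMSO (triangles) and SFE over DMSO (squares), on a log axis with exact 95% counting intervals as bars. The glycolytic enzymes other than ENO2 lie between 0.747 and 1.35, PFKFB4, ADM and ANKRD37 lie above 2 with both compounds, and CA9 is the lowest with both.

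Promoter letters are shown for 5 genes, HIF1A and 4 of its textbook targets, whose values lay on both sides of DMSO. Each line gives the 250 bases before the RefSeq start site (GRCh38.p14), 5′ to 3′ on the gene's strand. Capitals mark ACGTG or GCGTG, the letters of the HIF core, read on either strand (CACGT or CACGC on the printed strand). For CA9, ADM, PFKFB4 and LDHA the deposited gene begins farther upstream than the RefSeq start, so these windows lie partly or wholly inside the deposited locus. LDHA, the lactate dehydrogenase A gene, holds the most ACGTG matches of the 34 windows found for the 41 genes.
HIF1A (chr14:61695263-61695512, plus strand): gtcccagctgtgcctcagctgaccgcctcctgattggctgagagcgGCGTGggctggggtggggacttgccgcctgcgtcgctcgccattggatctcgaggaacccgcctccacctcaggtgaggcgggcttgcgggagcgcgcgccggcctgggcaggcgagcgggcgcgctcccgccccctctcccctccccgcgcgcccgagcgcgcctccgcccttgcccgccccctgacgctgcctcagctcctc
CA9 (chr9:35673678-35673927, plus strand): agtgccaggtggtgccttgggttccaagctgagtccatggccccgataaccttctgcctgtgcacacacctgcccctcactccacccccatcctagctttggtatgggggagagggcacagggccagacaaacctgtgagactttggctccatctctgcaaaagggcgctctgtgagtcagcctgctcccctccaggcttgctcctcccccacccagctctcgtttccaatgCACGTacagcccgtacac
ADM (chr11:10304823-10305072, plus strand): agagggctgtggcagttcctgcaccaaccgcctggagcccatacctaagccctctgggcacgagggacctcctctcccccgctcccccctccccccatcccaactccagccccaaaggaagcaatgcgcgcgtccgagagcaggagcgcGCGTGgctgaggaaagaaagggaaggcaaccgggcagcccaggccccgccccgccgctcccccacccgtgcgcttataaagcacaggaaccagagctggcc
PFKFB4 (chr3:48556804-48557053, minus strand): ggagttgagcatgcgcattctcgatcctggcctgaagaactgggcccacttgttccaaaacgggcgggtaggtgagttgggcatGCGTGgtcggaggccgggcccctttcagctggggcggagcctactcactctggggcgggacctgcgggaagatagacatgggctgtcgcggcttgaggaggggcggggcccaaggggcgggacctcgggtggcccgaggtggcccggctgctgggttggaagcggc
LDHA (chr11:18394313-18394562, plus strand): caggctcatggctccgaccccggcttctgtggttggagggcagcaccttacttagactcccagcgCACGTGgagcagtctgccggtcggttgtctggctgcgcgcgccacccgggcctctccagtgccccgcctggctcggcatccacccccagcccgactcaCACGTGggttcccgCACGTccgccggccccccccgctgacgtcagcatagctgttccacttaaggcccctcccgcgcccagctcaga

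The CA9 window holds 1 ACGTG match, which begins 18 bases before the start site, and CA9 was lower. The ADM and PFKFB4 windows hold no ACGTG and 1 GCGTG match each, and both genes were higher. LDHA has 5 ACGTG matches, where each CACGTG counts on both strands, and was lower. HIF1A has 1 GCGTG match and also 1 match to TGACNNNGC, the letters of the antioxidant response element, which begins 20 bases before the start. Of the other windows with ACGTG, those of GPI, ALDOA, GAPDH, PGK1, BNIP3, P4HA1 and ANKRD37 belong to genes above DMSO with both compounds. ALDOC, ENO2 and EGLN1 also hold ACGTG and were below DMSO with both, and HK2 was below it with SFA only. GCGTG without ACGTG was further held by PFKFB3, CA12 and KDM3A, which were higher, and by PFKL, ENO1 and HIF1A, which were lower. Among the 34 genes with a window in the RefSeq table, 13 (38.2%) held ACGTG, against 18.7% of all 27305 windows of the same length. GCGTG was held by 12 (35.3%) against 31.9%, and TGACNNNGC by 5 (14.7%) against 3013 of all 27305. ACGTG was found in 8 of 17 glycolytic enzymes and in 4 of 9 other hypoxia targets. A match describes the letters only, and its absence from the window says nothing of sites elsewhere.

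RNA of the listed glucose transporters was close to its DMSO level. SLC2A1, the widely expressed glucose transporter GLUT1, stood at 46.6, 44.8 and 49.9 FPKM (ratios of 0.962 and 1.07). SLC2A3, the high-affinity transporter GLUT3, stood at 6.92, 6.74 and 5.93 FPKM (ratios of 0.973 and 0.856). Neither moved by more than 1.17-fold, and the SFA interval of SLC2A3 holds 1.

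The 17 glycolytic enzymes were split. With SFA, 9 were higher and 8 lower, and with SFE 10 were higher and 7 lower, which turned to 7 higher and 10 lower when libraries were scaled by the median ratio over genes. Their median log2 difference was 0.06 with SFA and 0.05 with SFE, beside 0.01 and 0.03 over all genes tested. The share of enzymes higher than DMSO with SFA, 52.9%, is close to the 51.4% of all genes. With SFE it was 58.8%, against 55.2% of all genes. The 17 enzymes summed to 3.05%, 3.43% and 3.28% of the library. The 12 other hypoxia targets took 0.0434%, 0.0579% and 0.0553%.

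Among the enzymes of the first steps, PFKL and PFKP differed most from DMSO, in opposite directions. HK1, the housekeeping hexokinase, stood at 26.1, 27.2 and 27.9 FPKM, and HK2, the inducible hexokinase of tumours, came from 1805, 1212 and 1358 counts, at ratios of 0.924 and 1.03. GPI, which isomerises glucose 6-phosphate, was 1.11-fold (1.08 to 1.13) and 1.07-fold (1.05 to 1.10) the DMSO level. The 3 phosphofructokinase subunits, which form the committed step, parted. PFKP, the platelet type, stood at 68.5, 82.7 and 78.1 FPKM or 1.21-fold (1.17 to 1.25) and 1.14-fold (1.10 to 1.18) the DMSO level. PFKL, the liver type, stood at 9.65, 7.22 and 7.21 FPKM, and was 1.34-fold lower (1.25 to 1.42) with SFA and 1.34-fold lower (1.26 to 1.43) with SFE. PFKM, the muscle type, stood at 21.2, 23.0 and 22.0 FPKM. In each treated library PFKP was above and PFKL below DMSO, by more than counting error.

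In the middle of the pathway lay TPI1, the enzyme furthest above DMSO with both compounds. TPI1, which interconverts the triose phosphates, stood at 336, 452 and 413 FPKM, from 42244, 41347 and 37769 counts. That is 1.35-fold (1.33 to 1.37) and 1.23-fold (1.21 to 1.25) the DMSO level. ALDOA, the main aldolase, stood at 135, 163 and 153 FPKM, above DMSO in both treated libraries. ALDOC, the brain-type aldolase that hypoxia induces, was lower with SFA, at 9.33, 7.39 and 8.97 FPKM, or 1.26-fold lower (1.12 to 1.42), while its SFE interval holds 1. With SFA the aldolases lay on opposite sides of DMSO. GAPDH, often used as a reference gene, stood at 1025, 1156 and 1130.4 FPKM, or 1.13-fold (1.12 to 1.14) and 1.10-fold (1.09 to 1.11) the DMSO level. PGK1, a kinase that makes ATP and a frequent hypoxia marker, was 1.12-fold (1.11 to 1.15) and 1.05-fold (1.03 to 1.07) the DMSO level, the SFE value of which lay just below DMSO under median-ratio scaling.

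At the last steps PKM was higher and the enolases and lactate dehydrogenases lower. PKM, the pyruvate kinase of most tissues, had 145387, 133625 and 124451 counts, or 1.26-fold (1.26 to 1.27) and 1.18-fold (1.17 to 1.19) the DMSO level. ENO1, the common enolase, stood at 1105, 1021 and 997 FPKM and was 1.08-fold and 1.11-fold lower. ENO2, the neuron-type enolase that HIF induces, had 244, 107 and 128 counts and was 1.66-fold lower (1.32 to 2.10) with SFA and 1.39-fold lower (1.11 to 1.73) with SFE. LRRC23, which overlaps ENO2 on the same strand, had 59, 37 and 38 counts. PGAM1, the phosphoglycerate mutase, stood at 247, 244 and 241 FPKM. LDHA, which makes lactate from pyruvate, stood at 69.4, 57.0 and 61.7 FPKM, which is 1.22-fold lower (1.19 to 1.24) and 1.13-fold lower (1.10 to 1.15). LDHB, the form that favours lactate use, stood at 101, 91.8 and 81.8 FPKM, which is 1.10-fold lower (1.06 to 1.13) and 1.23-fold lower (1.19 to 1.27). For both dehydrogenases the DMSO library is the highest of the 3. Counting error is very small for such abundant genes, so these intervals say little about how far separate cultures would differ.

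The 3 PFKFB enzymes, which set the level of the phosphofructokinase activator fructose 2,6-bisphosphate, held the widest differences of the glycolytic genes. PFKFB4, a HIF-induced form (ENSG00000114268, chromosome 3, 48517684 to 48562015), had 185, 285 and 335 counts, or 1.30, 2.76 and 3.24 FPKM. Both treated values exceed DMSO, by 2.12-fold (1.76 to 2.56) with SFA and 2.49-fold (2.08 to 3.00) with SFE. UCN2, which overlaps PFKFB4 on the same strand, had 67, 45 and 28 counts. PFKFB3, the other hypoxia-induced form, stood at 3.49, 4.68 and 4.52 FPKM, at ratios of 1.34 and 1.29. PFKFB2, a form first known from heart, had 307, 117 and 132 counts and was 1.91-fold lower (1.54 to 2.38) with SFA and 1.69-fold lower (1.37 to 2.09) with SFE. It passed the filter only through DMSO, and YOD1, which overlaps it on the opposite strand, had 322, 157 and 202 counts.

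The listed genes of lactate export and pyruvate use differed little from DMSO in RNA, and other genes of pyruvate fate are given below. SLC16A1, the monocarboxylate transporter MCT1, stood at 16.7, 15.7 and 14.8 FPKM (ratios of 0.942 and 0.887). SLC16A3, the hypoxia-induced transporter MCT4, stood at 15.8, 17.8 and 16.4 FPKM (ratios of 1.13 and 1.04). CSNK1D, which overlaps SLC16A3 on the opposite strand, had 2782, 2181 and 2159 counts, beside 5171, 4231 and 3905 for SLC16A3. PDK1, the kinase that shuts off pyruvate dehydrogenase and a HIF target, had 165, 120 and 96 counts, and both of its intervals hold 1.

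**Figure D3:**
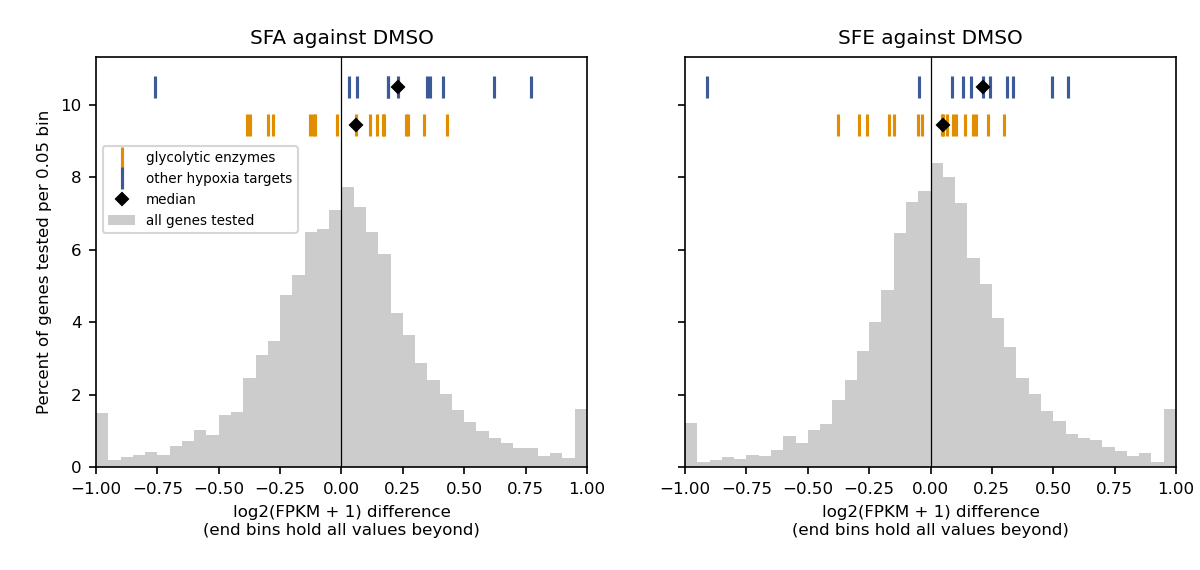
Log2(FPKM + 1) differences from DMSO of the 17 glycolytic enzymes (orange ticks) and of the 11 other hypoxia targets that passed the filter (blue ticks), over the spread of all 11680 genes (grey bars, percent of genes per bin, end bins holding all values beyond). Diamonds mark the group medians, 0.06 and 0.23 with SFA and 0.05 and 0.22 with SFE, and CA9 is the blue tick far to the left.

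Levels of different genes can be set side by side only per length, and the deposited FPKM used an unusual length. Of 10359 genes with at least 100 counts, 85.8% had an FPKM length within 0.1% of the sum of all distinct annotated exons in GENCODE 29, in which overlapping exons of alternative transcripts are each counted in full. Genes with many annotated transcripts are thereby set low. For the 41 genes this length was between 0.959 and 3.67 times the union of their exons. Per union of exons, the highest levels with DMSO were GAPDH at 2377, ENO1 at 1059, PKM at 904, TPI1 at 834 and ALDOA at 496, whereas deposited FPKM put ENO1 first. Ratios between libraries for a given gene do not depend on the length.

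Within gene families, the share of an isozyme differed most from DMSO for the PFKFB enzymes and the carbonic anhydrases. PFKFB4 made up 21.2%, 33.9% and 37.9% of the summed PFKFB level, while PFKFB2 made up 21.9%, 8.68% and 9.31%. CA9 made up 27.4%, 13.5% and 10.6% of the CA9 and CA12 sum. PFKP made up 69.0%, 73.2% and 72.8% of the phosphofructokinase subunits. ENO2 was at most 0.130% of the enolases by deposited FPKM and at most 0.286% per union of exons. For lactate dehydrogenase the length decides which gene leads: LDHA made up 40.9%, 38.3% and 43.0% by deposited FPKM, and 54.9%, 52.3% and 57.1% per union of exons.

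**Figure D4:**
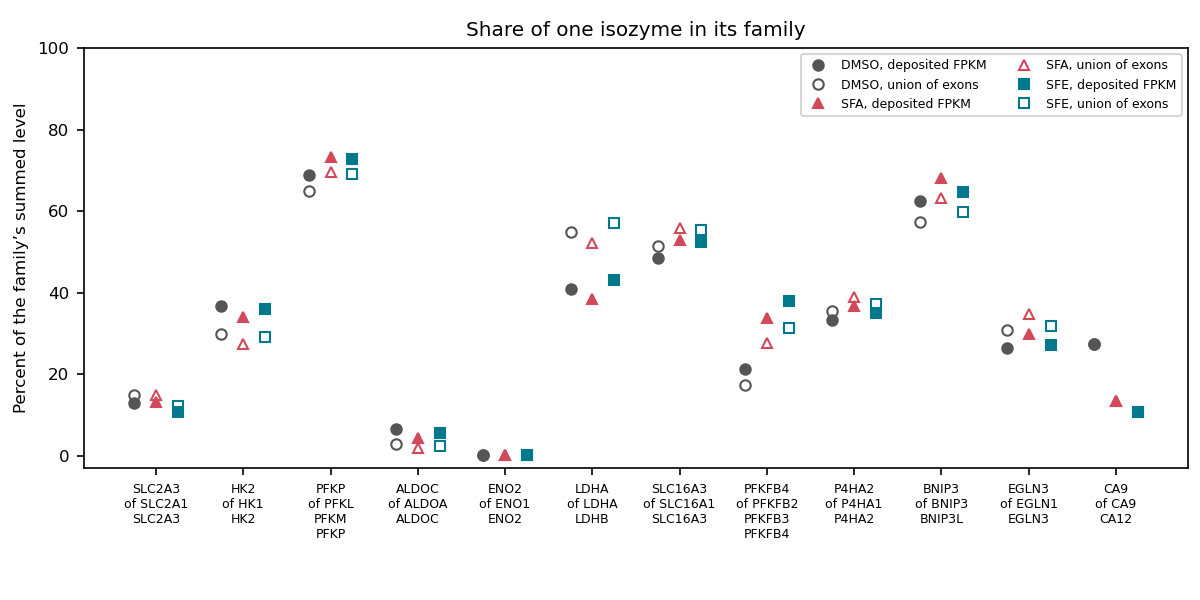
Share of a named isozyme in the summed level of its family, in percent, for DMSO (circles), SFA (triangles) and SFE (squares), by deposited FPKM (filled) and per union of exons (open). The PFKFB4 share is 21.2% for DMSO and 33.9% and 37.9% for the treated libraries, the CA9 share is 27.4% against 13.5% and 10.6%, and the filled and open LDHA symbols lie on different sides of 50%.

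Other genes of the HIF system were mostly near DMSO. Of 13 in the list, 12 passed the filter, with 9 higher and 3 lower with SFA and 8 higher and 4 lower with SFE. Under median-ratio scaling this was 8 and 4, and 6 and 6. Before that scaling the shares higher were 75% and 66.7%, against 51.4% and 55.2% of all genes tested. EPAS1, the alpha subunit HIF-2, stood at 10.3, 14.9 and 15.2 FPKM, from 2216, 2329 and 2384 counts, at ratios of 1.45 and 1.48. ARNT, the shared partner subunit, stood at 3.78, 5.29 and 5.89 FPKM, from 887, 904 and 1006 counts. Thus HIF1A was below DMSO where EPAS1 and ARNT were above it, and no listed gene overlaps EPAS1 or ARNT. CITED2, a HIF target that competes for the coactivator p300, stood at 14.9, 12.9 and 2.94 FPKM, which is 5.07-fold lower (4.38 to 5.90) with SFE.

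Of 37 further hypoxia targets, 31 passed the filter, with 17 higher and 14 lower in each comparison and medians of 0.02 and 0.06. The share higher, 54.8%, lies near the 51.4% (SFA) and 55.2% (SFE) of all genes tested. Under median-ratio scaling 15 and 14 were higher. By count ratio, 4 of the 31 (12.9%) were at least 1.5-fold higher in each comparison, against 10.2% and 10.6% of all genes. At least 1.5-fold lower were 0, against 9.08% and 6.89%. ANGPTL4, a lipoprotein lipase inhibitor, had 36, 359 and 251 counts (13.7-fold and 9.59-fold), or 0.240, 3.29 and 2.30 FPKM. The lower ends of its counting intervals were 9.73 with SFA and 6.74 with SFE. ANGPTL4 passed the filter only through the treated libraries, so its place among the 31 genes and the 4 higher ones rests on them. TMEM158, a RAS-induced membrane protein gene, stood at 3.94, 8.57 and 7.88 FPKM. ANGPTL4 and TMEM158 are known to answer to other signals too.

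The remaining metabolic lists held few large differences. Of 12 further glycolysis and glucose entry genes that passed the filter, 5 were higher with SFA and 8 with SFE, which was 4 and 5 under median-ratio scaling, where 51.4% and 55.2% of all genes tested were higher before that scaling. BPGM, which makes 2,3-bisphosphoglycerate, had 163, 70 and 124 counts (1.69-fold lower with SFA, a ratio of 1.05 with SFE). ENO3, the muscle enolase, had 357, 170 and 192 counts (1.53-fold and 1.35-fold lower). TXNIP, a glucose-responsive brake on glucose uptake, had 1406, 1117 and 1328 counts, which per library total is 1.09-fold and 1.30-fold the DMSO level. Of 16 genes of pyruvate fate, 6 (37.5%) were higher and 10 lower in each comparison, and 5 and 6 were higher under median-ratio scaling. PC, pyruvate carboxylase, had 7606, 3588 and 3718 counts (1.54-fold and 1.49-fold lower), PDHB, a pyruvate dehydrogenase subunit, stood at 7.18, 6.85 and 2.85 FPKM (2.52-fold lower with SFE), and PDPR, a regulator of its phosphatase, at 3.28, 4.10 and 5.70 FPKM. Of 3 measured genes of gluconeogenesis and the glycerol branch, PCK2, the mitochondrial PEP carboxykinase, was higher (4.13, 6.03 and 5.63 FPKM) and GPD1L lower (8.78, 6.22 and 6.73 FPKM), and GPD2 stood at 5.23, 4.80 and 4.85 FPKM. ENO3, PC, PDHB, PDPR, PCK2, GPD1L and ANGPTL4 overlap another listed gene.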

How the data were processed

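The authors deposited 1 table with raw counts and FPKM per gene for each of 3 libraries. The submitters' processing notes name HISAT2 2.0.4, the tool StringTie 1.2.3 and the build hg38. Their roles, and the counting tool, strand setting and annotation release, are not given in the sources used here. Ribosomal RNA was removed from total RNA, per the labels' protocols. The deposited FPKM equals the count divided by the library total and by 1 length per gene, as its values show.

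Log2(FPKM + 1) differences from DMSO were computed for genes that reached 1 FPKM in any library. Of repeated gene names (470 rows) the row with the highest mean FPKM was kept. Folds are ratios of counts per library total, with exact conditional (Clopper-Pearson) 95% intervals that cover counting error only. A library at 0 was given a floor of 3 counts. Exon lengths and strands came from GENCODE 29 (98.5% of rows matched by identifier), and promoter windows from RefSeq. All 41 genes are named, and from each of 5 wider lists up to 3 genes with the largest log2 difference in either comparison. Of the genes this rule names, 1 is not reported here. The genes and lists were chosen with earlier results of these data known. Alternatives were another pseudocount, other filters, median-ratio scaling, summed rows, leaving out overlapping genes and another length. The analysis used Python 3.11.15 and SciPy 1.17.1 and was tested on simulated data.

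Of the 41 genes, 30 overlap another listed gene, so some of their reads may belong to the neighbour. Pseudogenes named after a gene held at most 0.811% of its count, apart from those of BNIP3 (up to 4.44%), EGLN1 (up to 2.65%) and EGLN3 (up to 1.02%).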

Additional observations from a re-analysis of the deposited data

How the results depend on the processing

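With a pseudocount of 0.1 FPKM, 3 of the 41 genes lay past 2-fold with SFA and 3 with SFE, in place of 0. In each comparison these were PFKFB4 and ADM (higher) and CA9 (lower). With FPKM recomputed from the union of exons, a choice made after seeing the data, 1 lay past 2-fold with SFA (ADM) and 1 with SFE (CA9). The other settings left that count at 0. Without genes that overlap another gene, 5 other hypoxia targets were left, and their median log2 difference with SFA was 0.41 in place of 0.23. Under the remaining settings it was between 0.21 and 0.37. The median of the glycolytic enzymes with SFE, 0.05, was -0.024 under median-ratio scaling, which divides SFE counts by a further 1.06. That scaling also turned the sign of 4 of 76 differences, those of HK2, PFKM, PGK1 and SLC16A3 with SFE, none above 0.07 before. No other setting turned a sign. Of single values, 65 moved beyond counting error with the other length, 46 with median-ratio scaling and 8 with the pseudocount. Of the log2 differences from DMSO, only that of ADM with SFA was among the 65. The 46 count the log2 difference and the count fold of a gene separately. No paired analysis was possible because each group has 1 library. Depth limits ARNT2 and ANKRD37 most, and no setting stands in for replicate cultures.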

Other observations

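HKDC1, a hexokinase relative next to HK1 on chromosome 10 (69220303 to 69267559), was chosen after its values were seen. The DMSO library held 0 counts of it, the SFA library 53 and the SFE library 27. Set against a floor of 3 counts in the DMSO library, the ratio was 24.3 with SFA and 12.4 with SFE. The lower ends of the exact 95% intervals, which also cover the counting error of the treated libraries, were 19.1 and 9.40. Its highest level was 0.794 FPKM, so it stayed under the filter, and other listed genes overlap it. EGLN1P1, the only listed pseudogene row of the oxygen sensor EGLN1, had 2, 1 and 11 counts, beside 626, 450 and 415 for EGLN1.

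The length behind the deposited FPKM exceeded the gene's own locus for 1062 of 10359 genes with at least 100 counts, and for 6 of the 41 genes. For LDHA it was 16015 bases, against 6210 bases for the union of its exons. For ALDOA it was 14355 against 3916 bases, for ADM 8982 against 2718 and for ENO1 5058 against 5276. Levels set across genes from deposited FPKM carry these factors, and folds between libraries do not.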
